A study of Solanum tuberosum with 36 samples.

Results

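The genes described here had similar mean levels in watered potato leaves and in leaves after 6 days of drought, taken as an average of 4 cultivars, and higher levels after 10 days in every cultivar. They were chosen from the authors' group means. All 25289 genes are listed in each table, and 15322 of them had both means above 10 normalized reads in all 12 comparisons of days within a cultivar. R is log2 of the later mean over the earlier mean, so that an R of 1 is a 2-fold higher mean. The average R of the 4 cultivars from day 0 to day 6 had to lie between -0.5 and 0.5 and the average R from day 6 to day 10 had to exceed 0.5, which 1512 genes met. In 594 of these the smallest R from day 0 to day 10 over the cultivars was at least 0.5. The 150 with the largest smallest R from day 0 to day 10 were taken, and the other 444 were not. The values that chose these genes are given below as a description. They are not evidence for the rise.

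Leaves of 4 potato (Solanum tuberosum) cultivars were sampled from watered plants before drought (day 0). Others came from plants left without irrigation for 6 or 10 days. Each of 12 groups had 3 biological replicates from different plants, with 36 RNA-seq libraries in all. No library came from plants kept watered until day 6 or day 10. Days without water therefore cannot be told apart from plant age and sampling date. Irrigation was stopped after the plants had begun to form tubers, and the labels name no other treatment. Gwiazda (drought-tolerant) and Oberon (drought-sensitive) share 1 parent and form 1 pair, and Tajfun (drought-tolerant) and Owacja (drought-sensitive) are related by descent and form the other. Leaves came from the upper whorls of the stem, from the third to the fifth below the top. Each pooled value given below is the authors' mean for a group, with no value for a single library, so no SD is given and no test of a difference was run here. A difference is called here at 2-fold, and its size is not set against the spread between replicates.

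A leaf that loses water meets a changing stress. Early on, the hormone abscisic acid accumulates, stomata close, and genes for dehydrins and other late embryogenesis abundant proteins, which protect membranes and proteins in drying cells, are switched on. As water loss goes on, transcripts for chaperones, proteolysis, nutrient remobilization and senescence are known to accumulate in many plants. In whole leaves, a change in the number of cells of a type and a change in RNA per cell cannot be told apart. The tables name genes by PGSC identifiers and do not pair them with gene names. None of the 150 identifiers was found in the RefSeq gene table used here, so the genes could not be grouped by function, and the roles of the 2 printed below are not given. Marker genes of the leaf's cell types could not be checked for the same reason, and genes with near-identical copies could not be set apart.

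Genes that met the late rule were the smaller part of those with a rise shared by all cultivars. Of the 15322 genes, 2305 (15.0%) had an R from day 0 to day 10 of at least 0.5 in each cultivar. Of these, 594 (25.8%) met the late rule, 1545 (67.0%) had an average R above 0.5 by day 6 and are called the early set here, and 166 (7.20%) fell in neither class. A gene of the early set could also rise after day 6, and 770 of the 1545 had an average R above 0.5 in that interval too. The smallest R from day 0 to day 10 ranged from 1.05 to 3.77 over the 150 late genes, with a median of 1.36. The edge of the set was not a gap, because the last gene taken and the first left out both had a smallest R of 1.05, a 2.07-fold higher mean. In 31 of the 150 the average R from day 0 to day 6 lay beyond 0.4 in size, close to the edge of the band. This average was above 0 in 101 genes and below 0 in 49.

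The median course of the 150 genes was flat and then steep in all cultivars. From day 0 to day 6 the median R of the 150 genes was 0.16 in Gwiazda, 0.16 in Oberon, 0.18 in Tajfun and 0.13 in Owacja. The same median over all 15322 genes was 0.014, 0.030, 0.069 and 0.058, so the late genes stood only slightly above the other genes on day 6. With means taken from the other tables, each normalized separately, the day 6 median was 0.43 in Tajfun and 0.40 in Owacja, and that of all genes was 0.32 and 0.33, so the distance from the other genes was 0.11 and 0.068. From day 6 to day 10 their median R was 1.88 in Gwiazda, 2.16 in Oberon, 1.79 in Tajfun and 1.85 in Owacja, that is, 3.69-fold, 4.48-fold, 3.46-fold and 3.60-fold higher means. Over the whole 10 days the medians were 2.12, 2.05, 1.77 and 1.84. All 150 genes had their highest mean on day 10 in all 4 cultivars.

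**Figure D1:**
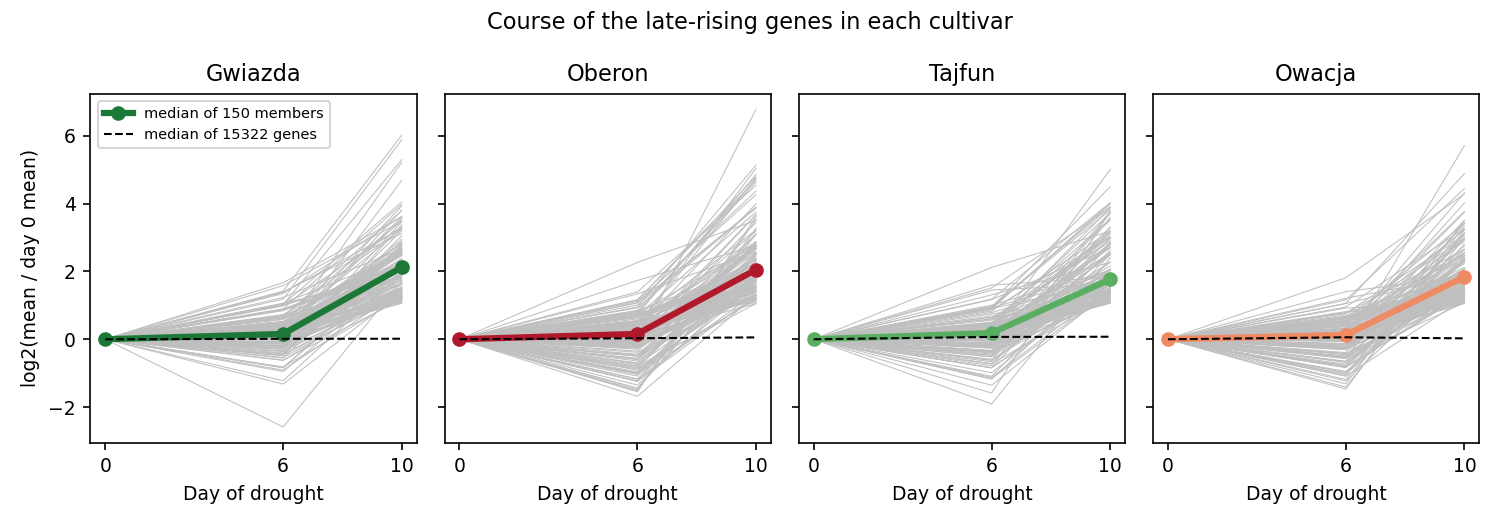
Course of the 150 late-rising genes in each cultivar, as log2 of the mean over the day 0 mean (y axis) against the day of drought (x axis). Grey lines are single genes, the thick line is their median and the dashed line is the median of all 15322 genes; the thick line lies between 0.13 and 0.18 on day 6 and between 1.77 and 2.12 on day 10, while the dashed line stays within 0.074 of 0.

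At a 2-fold call, 13 of the 150 genes were already higher by day 6 in Gwiazda, against 8.96% of all genes tested. The numbers were 10 in Oberon (9.47% of all genes), 8 in Tajfun (11.5%) and 6 in Owacja (12%). Genes 2-fold lower by day 6 numbered 3 in Gwiazda (12.9% of all genes), 16 in Oberon (12.1%), 7 in Tajfun (14%) and 9 in Owacja (14.8%). From day 6 to day 10, the count 2-fold higher was 142 in Gwiazda, 136 in Oberon, 131 in Tajfun and 127 in Owacja, where 11.2%, 11.8%, 8.27% and 9.93% of all genes were called. No gene of the 150 was 2-fold lower in that interval, beside 10.5%, 10.3%, 8.7% and 11.3% of all genes. From day 0 to day 10 all 150 were 2-fold higher in each cultivar, beside 15.7%, 15.9%, 16.4% and 17.3% of all genes in Gwiazda, Oberon, Tajfun and Owacja. These counts follow from the rule and show no more than its effect.

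The flat start held for the average more than for single cultivars. Only 29 of the 150 genes had an R from day 0 to day 6 between -0.5 and 0.5 in all 4 cultivars. In 48 genes this was so in exactly 3 cultivars, in 42 in exactly 2, in 25 in exactly 1, and in 6 in none. In 49 genes the day 6 mean was above 0.5 in R in at least 1 cultivar and below -0.5 in at least 1 other. In 12 genes these opposite differences both reached 2-fold. From day 6 to day 10, 144 genes had an R above 0.5 in all 4 cultivars. The remaining 6 fell short of 0.5 in at least 1 cultivar, and none had an R below 0. The rule required a rise by day 10 in each cultivar, but a flat start only on average. This difference between the 2 intervals thus follows largely from the rule and is a description. A 2-fold higher mean from day 6 to day 10 in all 4 cultivars was found in 107 of the 150 genes (71.3%) and in 445 of all genes (2.90%).

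The 29 genes that were flat in every cultivar had smaller late rises than the 49 that went in opposite directions by day 6. From day 6 to day 10 the median R of the 29 was 1.48 in Gwiazda, 1.64 in Oberon, 1.40 in Tajfun and 1.43 in Owacja. The median R of the 49 was 2.13 in Gwiazda, 2.89 in Oberon, 2.63 in Tajfun and 2.50 in Owacja. Both groups were formed from the same means, so these values describe the set and were not tested.

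The direction by day 6 also varied by cultivar. Gwiazda had 106 genes above its day 0 mean and 44 below it. Oberon had 86 above and 64 below, Tajfun 94 and 56, and Owacja 88 and 62. Of all 15322 genes, 7813 lay above day 0 in Gwiazda, 7923 in Oberon, 8245 in Tajfun and 8097 in Owacja. The R by day 6 ran from -2.58 to 1.67 in Gwiazda, from -1.68 to 2.27 in Oberon, from -1.91 to 2.12 in Tajfun and from -1.47 to 1.81 in Owacja. The 4 cultivars lay above day 0 together in 29 genes (19.3%, against 28.3% of all genes) and below it together in 4 (2.67%, against 25.7%). In 16 genes (10.7%, against 3.77% of all genes) both Gwiazda and Oberon were above day 0 while both Tajfun and Owacja were below it, and in 10 genes (6.67%, against 3.90%) the reverse was found. Across the 150 genes, Spearman's rho of R from day 0 to day 6 was 0.44 between Tajfun and Owacja, 0.068 between Gwiazda and Oberon, and from -0.27 to -0.035 between cultivars of different pairs. Over all 15322 genes it lay between 0.59 and 0.80 for the same 6 pairs of cultivars. The rule holds the average of the 4 values near 0, which by itself lowers these coefficients among the 150 and makes shared signs rarer.

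The order of the genes by the size of their rise was only loosely shared between cultivars. Across the 150 genes Spearman's rho of R from day 6 to day 10 was highest between Tajfun and Owacja (0.73) and between 0.53 and 0.61 for the other 5 pairs of cultivars, and over all genes it lay between 0.44 and 0.72. For R from day 0 to day 10 it was highest between Gwiazda and Oberon (0.71) and lay from 0.42 to 0.55 for the others, each below its value over all genes (0.66 to 0.86). The rule selected on these values. These are correlations across genes, which are not independent replicates, and the values of different cultivars came from different libraries. The gap between the largest and the smallest R from day 0 to day 10 over the cultivars had a median of 1.00 and ran from 0.15 to 3.72. It was below 1 in 76 genes and above 2 in 27. Oberon gave the largest R from day 0 to day 10 in 50 genes, Gwiazda in 47, Owacja in 32 and Tajfun in 21. Owacja gave the smallest in 55 genes, Tajfun in 45, Oberon in 30 and Gwiazda in 20. The same counts over all genes were not made, and the R of each cultivar came from a separately normalized table. These counts therefore only describe the 150.

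**Figure D2:**
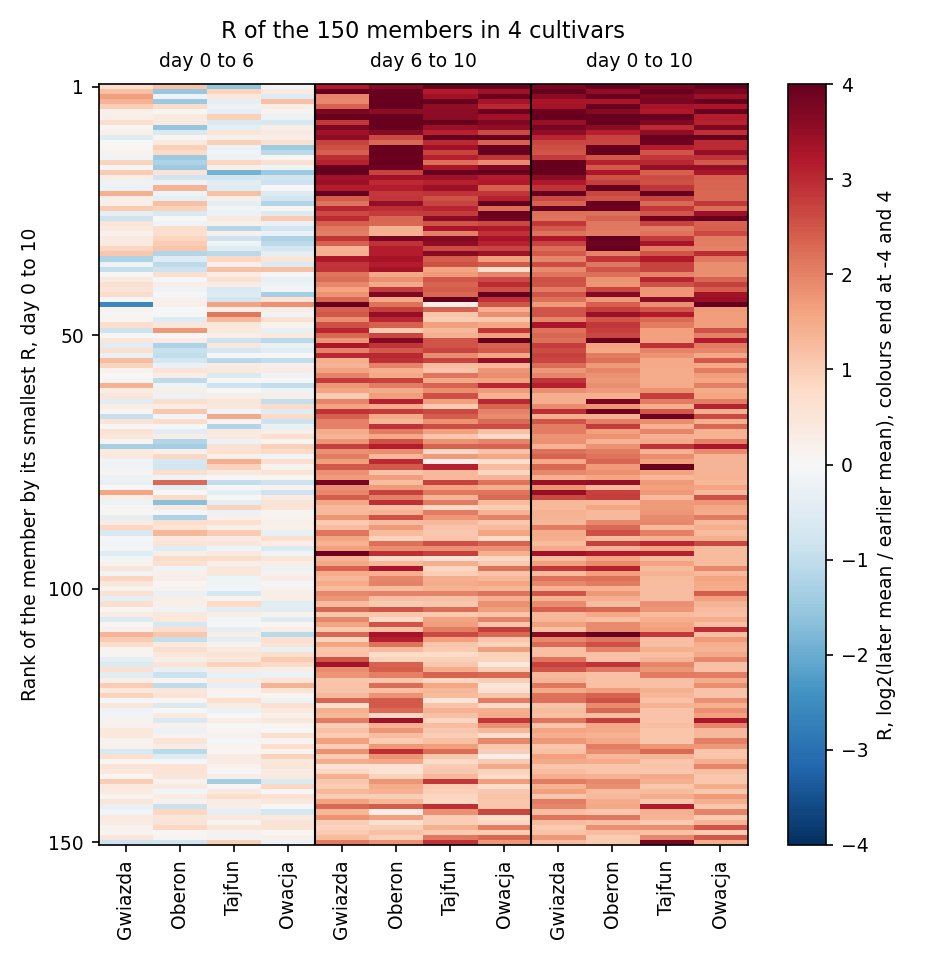
R, log2 of the later over the earlier mean, of the 150 genes (rows, by rank of the smallest R from day 0 to day 10) in each cultivar and interval (columns). Red is higher and blue lower in the later group, and colours end at -4 and 4; red and blue mix from day 0 to day 6, where only 29 genes stayed within 0.5 of 0 in all cultivars, and all values from day 6 to day 10 are above 0.

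A smaller number of genes rose steeply everywhere. In 32 of the 150 the day 10 mean was 4-fold or more above day 0 in all 4 cultivars, and in 8 it was 8-fold or more, beside 2.39% and 0.979% of all genes. A 4-fold or larger rise from day 6 to day 10 alone was found in all cultivars in 32 genes, beside 0.744% of all genes, and 27 genes met both conditions. The rule used these contrasts, so the shares are a description. Across the 32 genes that were 4-fold higher by day 10, the median R from day 0 to day 10 was 3.26 in Gwiazda, 3.25 in Oberon, 3.07 in Tajfun and 2.99 in Owacja.

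The gene with the largest smallest rise was PGSC0003DMG400010798. Its mean in Gwiazda was 147 normalized reads before drought, then 221 at 6 days and 2041 at 10 days. In Oberon the 3 means were 57.3, 129.6 and 1586 reads. In Tajfun they were 372, 136 and 5074 reads, and in Owacja 90.9, 92.6 and 4746 reads. The 4 day 10 means thus lay above all 8 means of the earlier days. The day 6 mean was above day 0 in Gwiazda (1.57-fold) and Oberon (2.22-fold) and below it in Tajfun, where R was -1.59. From day 6 to day 10 the mean was 9.05-fold higher in Gwiazda, 12.5-fold in Oberon, 42.4-fold in Tajfun and 59.6-fold in Owacja. By day 10 it was 13.6-fold above day 0 in Tajfun, where the rise was smallest, and 52.2-fold in Owacja, where it was largest.

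The second gene by that order was PGSC0003DMG400010713. Its means in Gwiazda were 360.3 reads before drought, 789.6 at 6 days and 21236 at 10 days. In Oberon they were 2313, 826 and 26783 reads, in Tajfun 1507, 3071 and 24452 reads, and in Owacja 1154, 1729 and 15702 reads. Again all 4 day 10 means exceeded the 8 earlier means. The mean was 58.9-fold higher by day 10 in Gwiazda, which had the lowest day 0 mean of the 4 cultivars, and 11.6-fold higher in Oberon, which had the highest. Before day 6 it moved in opposite directions in this pair, with an R of 1.18 in Gwiazda and -1.52 in Oberon. On day 10 the largest of the 4 means was 1.71 times the smallest, against 6.42 times on day 0. Both ratios set means of separately normalized tables side by side.

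**Figure D3:**
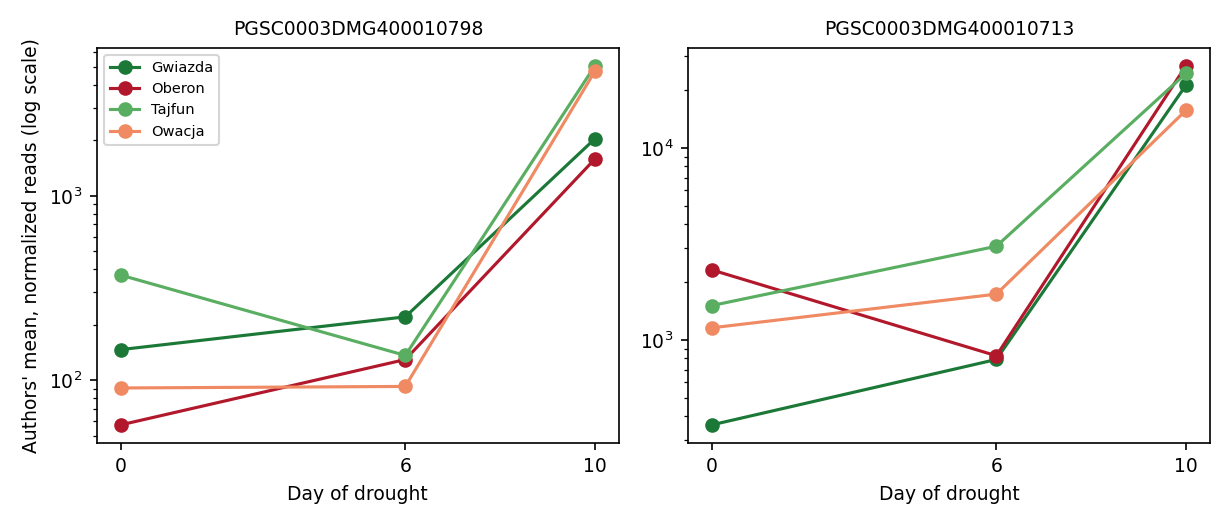
Authors' mean in normalized reads (y axis, log scale) of the 2 genes with the largest smallest rise, against the day of drought (x axis), with 1 line for each cultivar; the day 0 and day 10 means come from the comparison of those days and the day 6 mean from the comparison with day 10. In both panels every day 10 mean lies above all means of day 0 and day 6.

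Together the 150 genes took a larger part of the leaf's reads on day 10. They held 0.393% of all normalized reads of Gwiazda before drought, 0.474% at 6 days and 2.12% at 10 days. In Oberon the shares were 0.458%, 0.508% and 2.24%. In Tajfun they were 0.379%, 0.492% and 1.81%, and in Owacja 0.423%, 0.578% and 2.14%. The highest gene made up 28.2% of the reads of the 150 on day 10 in Gwiazda, 22.2% in Oberon, 8.73% in Tajfun and 11.1% in Owacja. Without the highest gene of each group the day 10 shares were 1.52% in Gwiazda, 1.74% in Oberon, 1.65% in Tajfun and 1.90% in Owacja, and the day 0 shares were between 0.343% and 0.418%. Reads are not divided by gene length, so these shares say nothing of numbers of transcripts. The rule chose genes with higher means on day 10, so a larger share on that day follows from it.

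**Figure D4:**
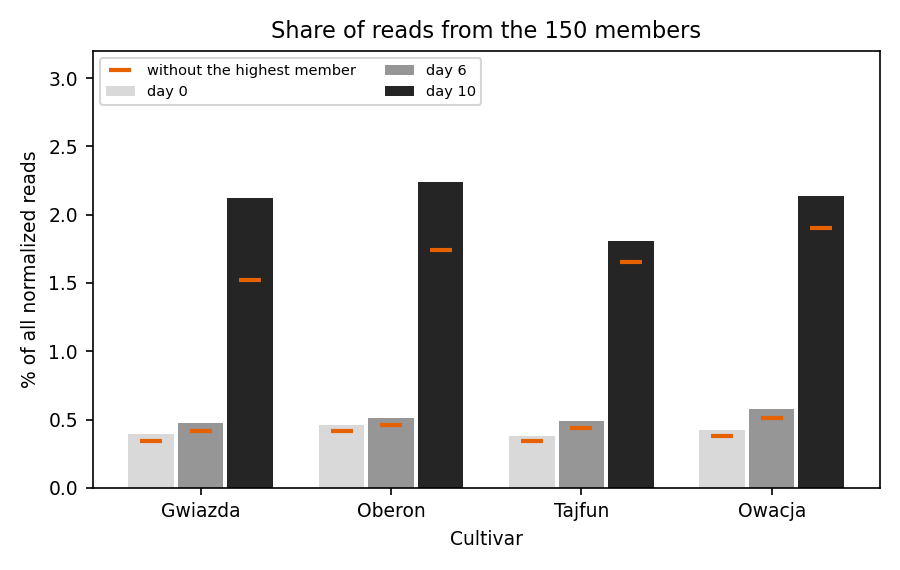
Share of all normalized reads of a group that the 150 genes held, in percent (y axis), for each cultivar (x axis) and day (bars); the orange marks are the shares without the highest gene of that group. Bars reach 0.578% at most on days 0 and 6 and lie between 1.81% and 2.24% on day 10.

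Most of the genes were measured at moderate levels. The median mean on day 0 was 213 reads in Gwiazda, 271 in Oberon, 255 in Tajfun and 283 in Owacja. On day 6 it was 270.2, 291, 297 and 280 reads. On day 10 it was 1140, 1255, 1292 and 1370 reads. Means below 100 reads on day 0 were found for 48 genes in Gwiazda, 43 in Oberon, 42 in Tajfun and 40 in Owacja, and on day 10 for between 2 and 7 genes. Low means rest on fewer reads, and their precision was not estimated here. Of the 150 genes, 88 would stay under a minimum of 100 reads in place of 10.

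The level of these genes was also compared between the cultivars of a pair, on each day, in tables the rule did not use, although the libraries are the same. The ratio given is log2 of the drought-tolerant over the drought-sensitive mean, so a negative value is a higher level in Oberon or Owacja. For Gwiazda over Oberon the median of the 150 genes was -0.11 on day 0, -0.10 on day 6 and -0.21 on day 10. For Tajfun over Owacja it was -0.19, -0.14 and -0.094. The medians over all 15322 genes lay between -0.021 and 0.020 in the 6 tables. The median ratio thus lay toward the drought-sensitive cultivar on each day in both pairs, by 1.07-fold to 1.15-fold, in these 6 tables. For Tajfun over Owacja on day 10 the sign was the opposite (0.021, with 0.13 for all genes) when the means came from the within-cultivar tables, which are each normalized separately. In the early set the same medians were 0.019, 0.030 and 0.034 for Gwiazda over Oberon, and 0.039, -0.086 and 0.047 for Tajfun over Owacja. In the 444 other genes that met the rule they were -0.048, -0.027 and -0.025 for Gwiazda over Oberon. For Tajfun over Owacja these genes had medians of 0.0051, -0.036 and -0.057. Each was smaller in size than that of the 150.

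The 2-fold calls leaned the same way. On day 0, 27 of the 150 genes were 2-fold or more higher in Oberon (3.93% of all genes) and 9 in Gwiazda (4.35%). On day 6 the counts were 19 in Oberon (7.61% of all genes) and 12 in Gwiazda (5.98%), and on day 10 they were 20 in Oberon (5.89%) and 4 in Gwiazda (3.7%). In the other pair, 17 genes were 2-fold higher in Owacja (4.74% of all genes) and 6 in Tajfun (3.86%) on day 0. On day 6 there were 12 in Owacja (3.89%) and 6 in Tajfun (3.9%), and on day 10 there were 25 in Owacja (8.33%) and 9 in Tajfun (9.31%). As shares of the 150, the calls toward the sensitive cultivar were 18.0%, 12.7% and 13.3% on the 3 days in Oberon and 11.3%, 8% and 16.7% in Owacja, each above the share of all genes. Those toward the tolerant cultivar lay between 2.67% and 8%, above the share of all genes on days 0 and 6 in both pairs, though by little in Tajfun, and below it on day 10 in both. On days 0 and 6 the 150 genes were thus called more often than all genes toward Oberon, Owacja and Gwiazda. Toward Tajfun their share was 4% on both days, close to that of all genes. Of the 444 other genes that met the rule, 4.73%, 6.76% and 4.95% were called toward Oberon on days 0, 6 and 10. The shares of these genes were 4.50%, 6.53% and 2.48% toward Gwiazda, 2.48%, 4.28% and 8.78% toward Owacja, and 3.60%, 1.58% and 4.05% toward Tajfun.

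Few genes kept a large difference between the cultivars on all days. Oberon had the higher mean on all 3 days in 52 of the 150 genes (34.7%, against 23.7% of all genes), and Gwiazda in 23 (15.3%, against 23.1%). Owacja had the higher mean on all days in 55 (36.7%, against 24.8%) and Tajfun in 29 (19.3%, against 24.3%). In 21 genes (14.0%, against 7.15% of all genes) the sensitive cultivar was higher on every day in both pairs, and in 4 genes (2.67%, against 6.55%) the tolerant cultivar was. A 2-fold difference on all 3 days was found in 5 genes toward Oberon (3.33%, against 1.07% of all genes) and 0 toward Gwiazda (against 0.875%). It was found in 3 toward Owacja (2%, against 0.953%) and 1 toward Tajfun (0.667%, against 1.10%). The shares toward the sensitive cultivars were thus above those of all genes, though on few genes. R from day 0 to day 10 was larger in Gwiazda than in Oberon in 81 genes and smaller in 69, and larger in Tajfun than in Owacja in 80 and smaller in 70. These were 54.0% and 53.3% of the 150 with the larger rise in the tolerant cultivar, against 44.7% and 51.2% of all genes. The median difference in this R, tolerant minus sensitive, was 0.020 in each pair, and over all genes it was -0.059 for Gwiazda and Oberon and 0.018 for Tajfun and Owacja. The 2 cultivars differed by 1 or more in R in 25 genes for Gwiazda and Oberon (16.7%, against 9.34% of all genes) and in 24 for Tajfun and Owacja (16%, against 15.8%, so close to the background).

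**Figure D5:**
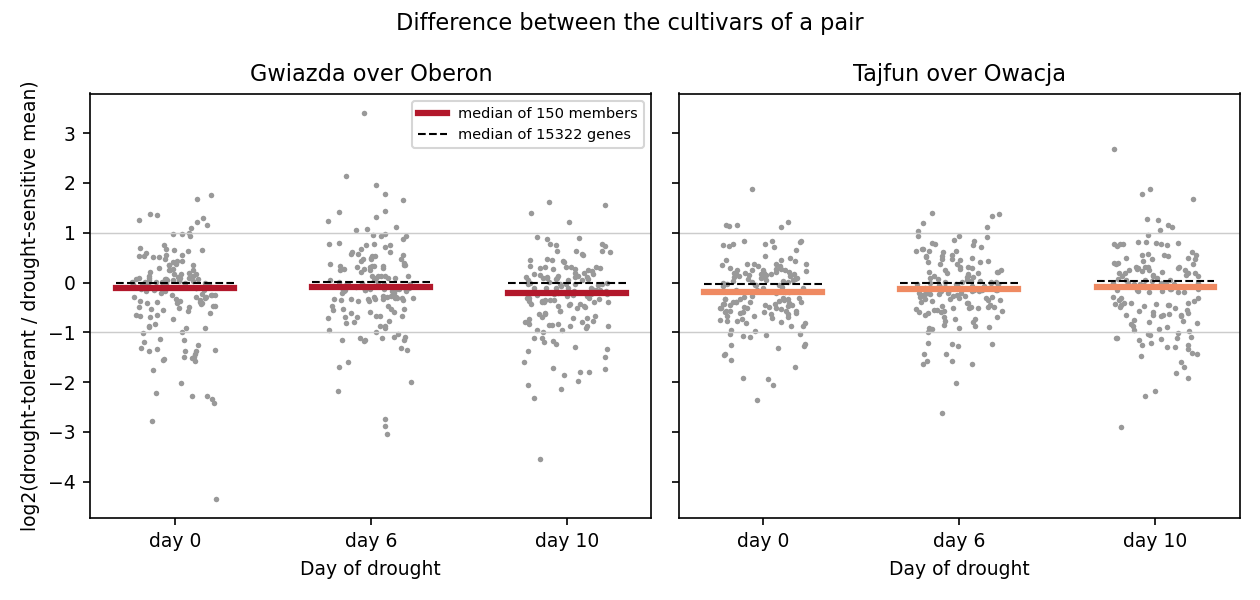
Log2 of the drought-tolerant over the drought-sensitive mean (y axis) of the 150 genes (grey points) on each day (x axis) for both pairs, with the median of the 150 (thick line) and of all 15322 genes (dashed line); thin grey lines mark 2-fold. Each thick line lies below its dashed line, between -0.21 and -0.094.

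The late genes were set beside genes that the paper names. None of the 33 genes it names for rank, stability or RT-PCR was among the 594 genes that met the rule. Of the 33, 10 were below the minimum of 10 reads in at least 1 comparison, which left 23. Only 3.88% of all genes above the minimum met the rule, so finding 0 among 23 says little about overlap. The 8 stable genes among them were chosen for a low fold change and could hardly meet it. The paper's longer list from its initial round of selection was not compared as a whole. That list includes PGSC0003DMG400008434, which has rank 44 among the 150. RAB18 (PGSC0003DMG400003531) is a dehydrin gene that responds to abscisic acid and is used as a drought marker. It was in the early set and differed from the 150 genes in timing. Its means in Gwiazda were 86.6 reads before drought, 2077 at 6 days and 1029.8 at 10 days. In Oberon they were 57.4, 1975 and 861 reads, in Tajfun 131, 4708 and 3365 reads, and in Owacja 62.2, 3736 and 1395 reads. The marker thus stood highest on day 6 in all 4 cultivars, where the 150 genes had a median R between 0.13 and 0.18. Its R from day 0 to day 6 was between 4.64 and 5.72, and its R from day 6 to day 10 was between -1.20 and -0.30. On day 10 it was still above day 0 in each cultivar, with an R between 3.57 and 4.68.

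Genes with an early rise went on in different ways after day 6. In the early set of 1545 genes, the median R from day 6 to day 10 was 0.53 in Gwiazda, 0.54 in Oberon, 0.51 in Tajfun and 0.40 in Owacja. The average R of that interval was above 0.5 in 770 of them (49.8%) and below 0 in 286 (18.5%). A homologue of HSP20 (PGSC0003DMG400039484), a family of small heat shock proteins that act as chaperones, was in the early set and was higher in both intervals. Its means were 95.0, 309 and 7927 reads on days 0, 6 and 10 in Gwiazda, 34.9, 308 and 6172 in Oberon, 60.1, 1279 and 14394 in Tajfun, and 31.9, 343 and 1390 in Owacja. Its R from day 6 to day 10 was between 2.24 and 4.65. The band for day 6 thus leaves this gene out of the 150 despite its steep late rise. It is among the paper's top-ranking genes and was chosen after its values were seen.

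The values rest on tables that each had a normalization of their own. The sum of R from day 0 to day 6 and from day 6 to day 10 differed from R from day 0 to day 10 by 0.053 at most in the 150 genes. The totals of normalized reads lay between 34212700 and 44685600 per group and table, and the larger total of a table was at most 1.31 times the smaller. In the 3 tables that hold Oberon on day 10, the authors' mean over both groups gave the other group a weight of 0.6 where the other 15 tables gave 0.5. A weight of 0.6 is that of 3 libraries against 2, so the Oberon day 10 mean may rest on fewer libraries than its labels list. With Oberon left out of the rule, 131 of the 150 genes still met it, and 111 of them were among the first 150. The rule over 3 cultivars kept the fewest of the 150 when Owacja was left out, with 130 genes meeting it and 95 among the first 150.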

How the data were processed

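The authors sequenced strand-specific libraries of leaf RNA and, per the paper's methods, checked reads with FastQC, mapped them with TopHat2 to the potato PGSC pseudomolecules (version 4.03), estimated reads per transcript with Flux Capacitor (version 1.6.1), summed isoforms per gene and ran DESeq for each comparison of 2 groups. Other versions are not given in the sources used here. The deposited signal values are the authors' group means of normalized reads, made separately for each of 18 tables. The fold change, log2 fold change, p-value and adjusted p-value that the authors deposited beside them were not used. The tables give no value for a single library, and the read totals per library in the paper's supplement were not used here.

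R was computed from the 2 means of a table, with no pseudocount, and genes with a mean of 10 or less in any of the 12 within-cultivar tables were left out. Groups came from the sample titles. The genes and lists were chosen with earlier results of these data known. The 2 genes printed by identifier have the largest smallest R from day 0 to day 10; RAB18 was taken as the drought marker, and the HSP20 homologue, from the paper's named genes, was chosen after its values were seen. None of the 25289 identifiers matched the RefSeq gene table of assembly SolTub_3.0, so the lists by function and the cell type markers could not be used. Alternatives changed the minimum, the band, the rise, the centring, the call and the cultivars. Python 3.11.15, pandas 2.3.3 and numpy 2.4.6 were used.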

Additional observations from a re-analysis of the deposited data

How the results depend on the processing

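No paired analysis was possible because the tables hold 1 mean per group, and leaving out a replicate was not possible for the same reason. Of 130 values of 44 results under alternatives, 84 stayed within set limits, 45 moved further and 1 changed sign. The limits were 1.5 times a count or the 95% order-statistic interval of a median over the genes. That interval treats the genes as independent, which they are not, and says nothing of the spread between replicates. In place of 594 genes, 310 met the rule with a band of 0.25, 313 with a rise above 1, and 121 when the band and the rise were required in each cultivar, an alternative chosen after seeing the data. Of the 150 genes, 88 were kept with a minimum of 100 reads, 73 with a band of 0.25, 95 with Owacja left out and 29 with the band and rise in each cultivar. Under the other alternatives between 106 and 147 were kept, and centring on the median of all genes moved none of the results beyond those limits.

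A call at another fold changes counts by its construction. By day 6 the count higher in Gwiazda, Oberon, Tajfun and Owacja was 32, 30, 24 and 25 at 1.5-fold and 1, 2, 2 and 1 at 3-fold. From day 6 to day 10 it was 87 in Tajfun at 3-fold, and from day 0 to day 10 it was 92 in Tajfun and 91 in Owacja at 3-fold. Toward Gwiazda on days 0, 6 and 10 the counts were 20, 26 and 15 at 1.5-fold and 2, 5 and 1 at 3-fold. Toward Oberon they were 35 on day 6 and 43 on day 10 at 1.5-fold and 9, 7 and 11 on the 3 days at 3-fold. Toward Tajfun they were 16, 21 and 21 at 1.5-fold and 1, 0 and 4 at 3-fold. Toward Owacja they were 38, 29 and 44 at 1.5-fold and 5, 4 and 7 at 3-fold.

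With means from the other tables the median R by day 6 was 0.43 in Tajfun and 0.40 in Owacja, and by day 10 it was 1.96 and 2.01. For Tajfun over Owacja on day 10 the median was 0.021 with means of the within-cultivar tables and -0.094 in the table that compares the 2 cultivars. The within-cultivar tables are each normalized separately; the cause was not tested.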
